A study of Mus musculus with 17 samples.

Results

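Glutamate is the main excitatory transmitter of the hippocampus, and the 34 genes described here encode subunits of its receptors, proteins that travel with these receptors, and the scaffolds that hold them at the synapse. They were taken by symbol from a list of these families, and all 34 were found among the 55471 genes of the count table. They comprise 4 AMPA receptor subunits, 5 kainate receptor subunits, 6 NMDA receptor subunits, 6 metabotropic receptors, 7 auxiliary subunits of AMPA receptors, 2 auxiliary subunits of kainate receptors and 4 scaffolds of the PSD-95 family. All 34 genes had at least 28 counts in every library, so all of them passed the filter of 10 counts in 2 libraries. DESeq2 gave each of them an adjusted p in every comparison except Grin2d between the genotypes in PTZ0, which its own filter on low means left out.

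The hippocampi came from C57BL/6 mice between 3 and 6 months of age, and their total RNA gave 17 libraries. CBP-ifKO mice carried floxed Crebbp and the creERT2 recombinase under a Camk2a promoter, which acts in excitatory neurons of the forebrain, so that tamoxifen led to a truncated CBP protein in these neurons and not in other cells of the hippocampus. Control mice were littermates that also received tamoxifen, and the study's methods say that they lacked creERT2 although their labels name it. Within each genotype, Sal mice were never kindled and received saline, whereas PTZ0 and PTZ45 mice were kindled with pentylenetetrazole (PTZ, a blocker of GABA-A receptors), and 45 min before the hippocampi were taken they received saline (PTZ0) or 45 mg/kg PTZ (PTZ45). Kindled here means given the repeated PTZ injections. In the paper, Controls developed seizures under them, whereas no CBP-ifKO entered the stage of progressive seizures. The kindled groups of the genotypes therefore differ in seizure history too. There were 2 libraries of Control PTZ45 and 3 of each other group.

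AMPA, kainate and NMDA receptors are ion channels made of 4 subunits. AMPA receptors carry most of the fast excitatory current, kainate receptors modulate it and are abundant at mossy fiber synapses, and NMDA receptors let in calcium when transmitter release and depolarization coincide. Metabotropic receptors act through G proteins, with Grm5 in the group that activates phospholipase C and Grm2, Grm3, Grm4, Grm7 and Grm8 in the groups that lower cyclic AMP. TARPs (Cacng genes), cornichons (Cnih genes) and Shisa proteins set the trafficking and gating of AMPA receptors, Neto1 and Neto2 do so for kainate receptors, and the Dlg proteins anchor receptors in the postsynaptic density.

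The libraries held between 5831992 and 18735643 counts, and CBP-ifKO Sal replicate 2 was the shallowest. Crebbp, the targeted gene, was lower in every CBP-ifKO library (1061 to 1337 normalized counts, n = 9) than in every Control library (1824 to 2429, n = 8), and Esr1, which shares sequence with the creERT2 transgene, had 703 to 941 normalized counts against 41.0 to 77.8. Normalized counts are counts divided by DESeq2 size factors, the scaling to a common depth. Summed choroid plexus markers, 5 genes led by Ttr, exceeded 5000 normalized counts in 5 libraries (Control Sal replicate 2, CBP-ifKO Sal replicate 1, Control PTZ0 replicate 2, CBP-ifKO PTZ0 replicate 3 and CBP-ifKO PTZ45 replicate 2) and lay between 435 and 1136 in the other 12. The sequencing lane tags in the column names differ between the genotypes within each treatment: Control Sal and PTZ0 have lane 3, Control PTZ45 and CBP-ifKO Sal have lane 4, and CBP-ifKO PTZ0 and PTZ45 have lane 5. Genotype and lane therefore cannot be told apart within a treatment.

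To compare levels between genes, normalized counts were divided by the length of the gene model in kilobases. In Control Sal hippocampus, Gria1, a core subunit of AMPA receptors, had the highest level of the 34 genes, 2451 ± 188 normalized counts per kilobase (SD, n = 3). Gria2, the subunit that makes AMPA receptors impermeable to calcium, followed with 1438 ± 20.6. Cnih2, a cornichon that binds AMPA receptors, had 1106 ± 111, and the NMDA receptor subunit Grin2b had 939 ± 109. Gria1, Gria2 and Cnih2 did not overlap with the gene next in order, whereas Grin2b overlapped with Grm5, the main postsynaptic metabotropic receptor of pyramidal cells (813 ± 21.6). Below them came Grin2a (660.0 ± 60.2), Dlg3 (475 ± 14.5) and Gria3 (427 ± 24.7), each without overlap with the gene after it. Grm3, Cacng8, Dlg4 and Dlg2 formed a run of overlapping levels from 384 ± 13.5 to 334 ± 17.3. Grin1, the obligatory subunit of NMDA receptors, was listed at 230.0 ± 17.2 per kilobase of a gene model of 9700 bases, below Grin2b. At the lower end were Grm8 (26.96 ± 2.91), Grm4 (16.2 ± 2.37) and Grin2d (7.21 ± 0.535), which did not overlap with each other. The length used is that of all exons of a gene together, which is longer than most single transcripts, and the level of a gene with many alternative exons is lowered by it.

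**Figure D1:**
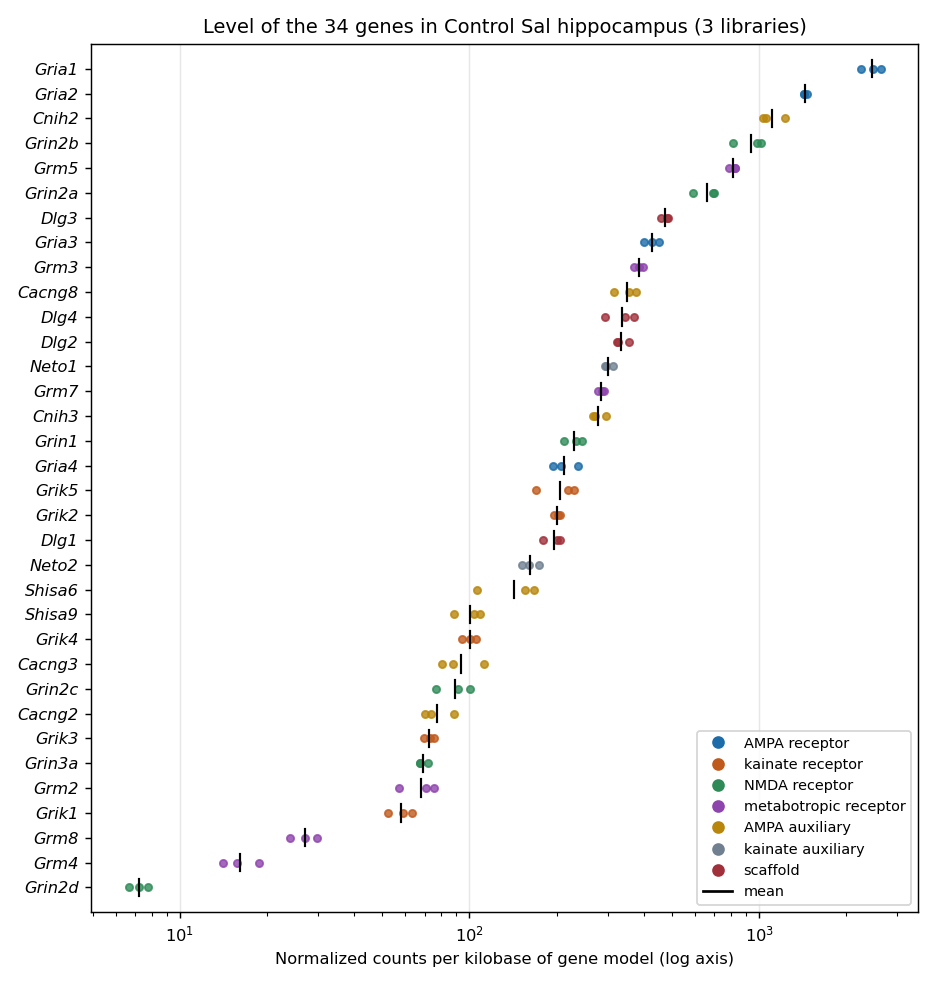
Each point is a Control Sal library (3 per gene) and each vertical line the mean, on a log axis of normalized counts per kilobase of gene model, with colors for the role of the gene. The levels span from Grin2d, with a mean of 7.21, to Gria1, with a mean of 2451.

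Expression of the 34 genes was first compared between genotypes over all 3 treatments, in a fit of all 17 libraries with treatment as a term. A gene was called when its adjusted p in the Wald test of DESeq2 was under 0.05. Of the 34 genes, 18 were lower in CBP-ifKOs and 0 were higher, and the quasi-likelihood test of edgeR called the same 18. At an unadjusted p under 0.05 there were 21 of the 34 genes, all with a log2 fold change below 0, and 6 of the 34 genes had one above 0. Of all genes, 5949 had an unadjusted p under 0.05, where 18682 had an adjusted p. In the same fit, 11.5% of all genes tested were called lower, 7.76% were called higher and 19.3% were called in either direction, and of those that averaged 50 normalized counts or more, 15.0% were called lower and 9.97% higher. The median log2 fold change of the 34 genes was -0.15, beside 0.0098 over all genes tested. In this fit the differences were small: the largest of the 18 was that of Grm4, at 68.2% of Control, and the smallest that of Dlg3, at 91.7%. Of the 34 genes, 23 had a lower mean in CBP-ifKOs than in Controls within each of the 3 treatments. The share of all genes with this pattern was not computed, so the count has nothing to be set against. In bulk tissue, fewer cells of a type and less RNA per cell cannot be told apart.

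**Figure D2:**
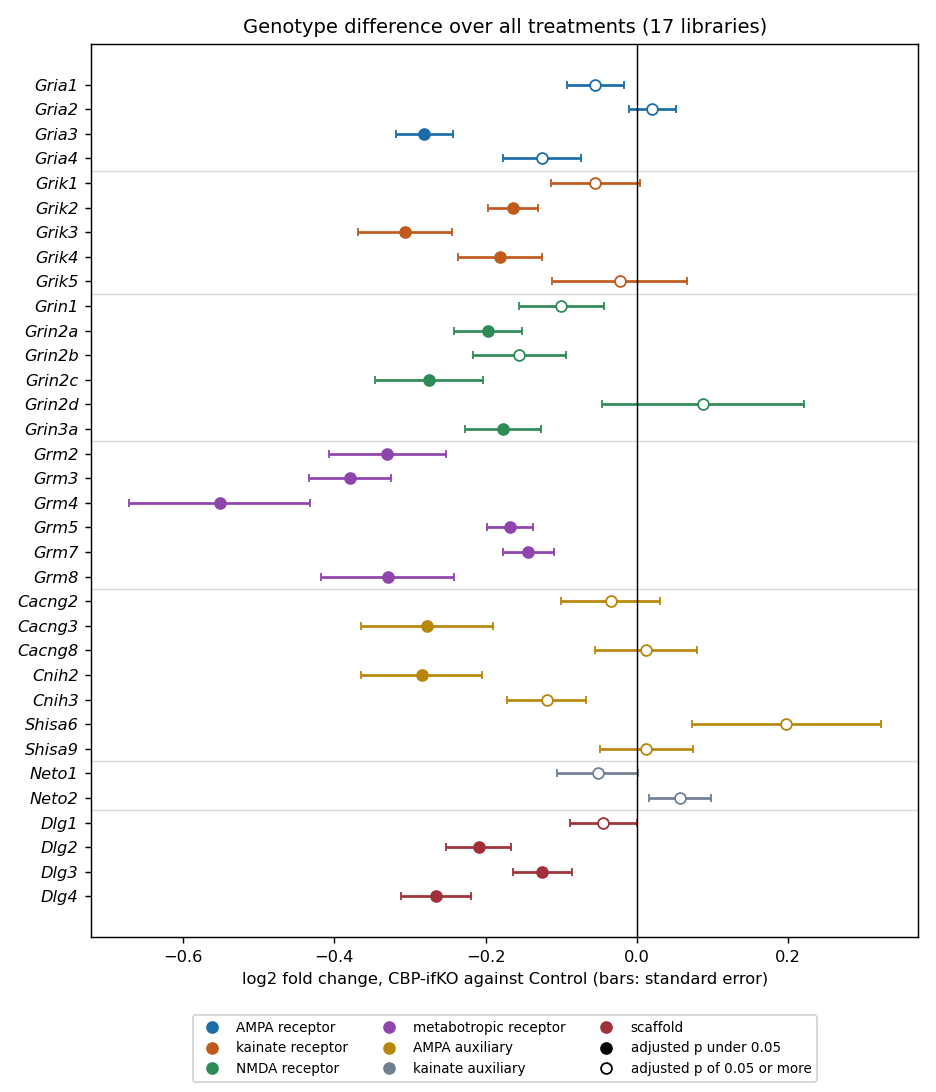
Points give the log2 fold change of CBP-ifKOs against Controls over all treatments for each of the 34 genes (17 libraries), and bars the standard error. Filled points (18) have an adjusted p under 0.05 and all lie below 0, and the metabotropic receptors are the group in which every gene is filled.

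These calls did not hold once the lane tag entered the model. With lane as a term beside treatment, 0 of the 34 genes were called, together with 131 of 16404 genes tested in all, and 8 of the 18 had an unadjusted p under 0.05. The genotype term then rests on the assumption that genotype and treatment effects add up, and its median SE for the 18 genes was 0.16 in place of 0.052. The median log2 fold change of the 18 was -0.28 with the lane term and -0.27 without it, and 17 of the 18 stayed below 0, the exception being Cacng3. Within lane 4, the only lane with both genotypes, CBP-ifKO Sal can be set against Control PTZ45, which differ in treatment too. In that contrast, added after the data had been seen, 17 of the 18 were again below 0, the exception being Grin2c, and 5 were called lower, namely Gria3, Grik2, Grin2a, Grm3 and Dlg2, with 528 of 15483 genes called in all. Several differences were much smaller there than over all treatments, namely those of Grm2 (log2 fold change -0.0014), Cnih2 (-0.095), Dlg4 (-0.11), Grik3 (-0.12) and Grm4 (-0.20), and that of Grin2c was above 0 (0.16), whereas Grik2 (-0.31), Grin3a (-0.32), Grm5 (-0.27) and Dlg2 (-0.33) were more than 1.5 times as large. With lane as a term, the log2 fold change of Cacng3 was 0.015, while those of Grin2c (-0.14), Grm4 (-0.33) and Grm8 (-0.14) were smaller by more than 1.5 times and those of Grik2 (-0.30), Grin2a (-0.41), Grin3a (-0.40), Grm5 (-0.28) and Dlg2 (-0.33) larger by as much. Without the 5 libraries high in choroid plexus markers, another alternative added after the data had been seen, all 18 stayed below 0 in the remaining 12 libraries and 9 were called (Gria3, Grik2, Grik3, Grin2a, Grin2c, Grm3, Grm5, Dlg2 and Dlg4), with 1870 of 15846 genes called in all.

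**Figure D3:**
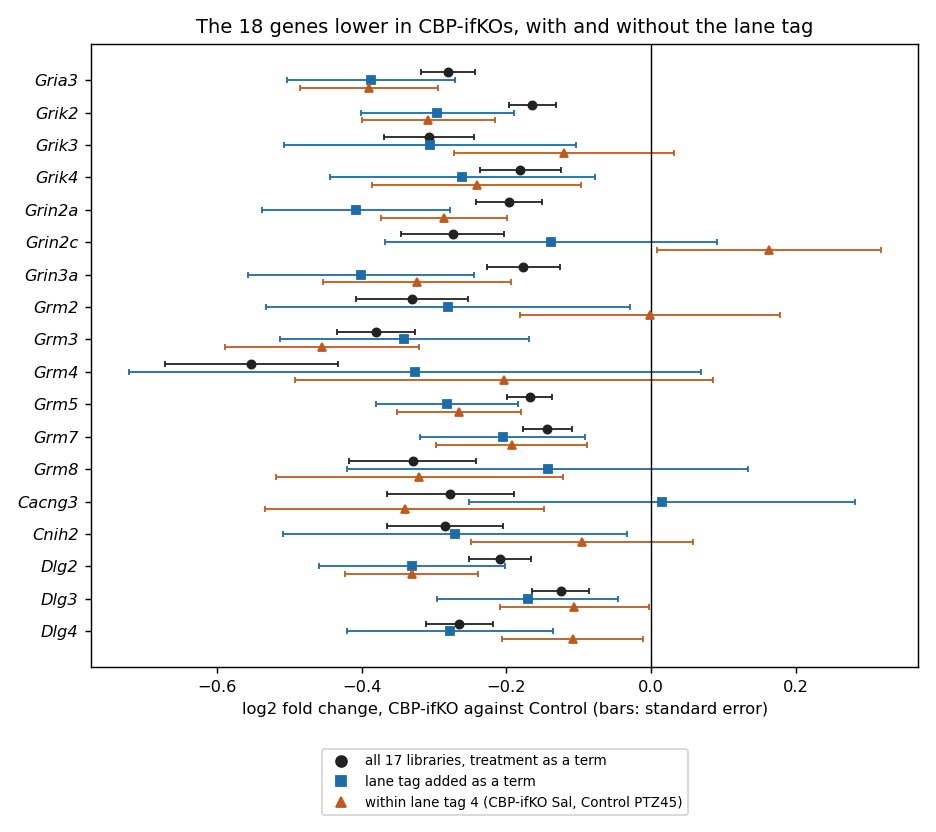
The log2 fold change of CBP-ifKOs against Controls, with its standard error, is shown for the 18 genes lower in CBP-ifKOs in 3 fits: all 17 libraries with treatment as a term (circles), with the lane tag added (squares), and within lane 4, where CBP-ifKO Sal is set against Control PTZ45 (triangles). The squares have a median of -0.28 and wider bars, at a median SE of 0.16 against 0.052, with 0 of the 18 genes called, and single genes move in both directions, Cacng3 to 0.015.

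CBP is recruited by CREB to the cyclic AMP response element, so the bases before annotated RefSeq starts were searched for it. RefSeq promoters of build GRCm38.p6 were given for 23 of the 34 genes, in 35 windows of 250 bases upstream of a start, some of which are internal to the gene. The full element TGACGTCA was in 0 of the 35 windows and in 1.55% of 32851 windows of all genes. The core TGACG, read on both strands and contained in the full element, was in 4 windows of 4 genes (Grin1, Grm8, Dlg3 and Dlg4) and in 17.77% of all windows. The pattern TGANTCA, with any base at N, is wider than the AP-1 element, which has C or G there. It was in 1 window, of Grm8, as TGATTCA, and in 6.75% of all. The last 120 bases of 3 of these windows are shown, for a gene with 2 cores that was not called (Grin1), a called gene with 1 core in 1 of its 2 windows (Dlg3) and the gene with the lowest p of the metabotropic receptors, which has none in this window (Grm3). They are written 5′ to 3′ on the strand of the gene and end at the base before the start, which for the Dlg3 window is an internal one, within the span of the gene, and capitals mark TGACG or its reverse complement CGTCA.
Grin1, chr2:25319188-25319307, minus strand: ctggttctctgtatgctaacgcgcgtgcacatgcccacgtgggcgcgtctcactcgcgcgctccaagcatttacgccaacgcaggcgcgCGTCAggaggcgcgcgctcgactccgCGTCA
Dlg3, chrX:100774375-100774494, plus strand: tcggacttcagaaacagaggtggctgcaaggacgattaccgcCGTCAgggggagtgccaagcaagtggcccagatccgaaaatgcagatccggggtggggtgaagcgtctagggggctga
Grm3, chr5:9725353-9725472, minus strand: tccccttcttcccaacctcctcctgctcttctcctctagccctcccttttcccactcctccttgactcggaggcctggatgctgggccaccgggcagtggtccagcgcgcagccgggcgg
The windows of Grm8 and Dlg4 with the core lie partly in annotated exons and are not shown. A match is a description of the letters, and no binding was measured in these samples.

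Of the 4 AMPA receptor subunits, Gria3 alone was called. Gria3 (chrX:41400854-41678601, GRCm38), an X-linked subunit that pairs with Gria2, had 3963, 4218 and 4449 normalized counts in Sal, 4059, 4193 and 4176 in PTZ0, and 4619 and 4618 in PTZ45 among Controls. In CBP-ifKOs, Gria3 had 3465, 3849 and 3295 in Sal, 3603, 3615 and 3339 in PTZ0, and 3744, 3572 and 3428 in PTZ45. Every CBP-ifKO library lay below every Control library, across treatments as well as within each. Over all treatments Gria3 was at 82.3% of Control (log2 fold change -0.28, SE 0.038, adjusted p = 7.79e-12), and this call held when any of the 17 libraries was left out. Gria1 (chr11:57011387-57330244) had 13632, 14897 and 15904 normalized counts in Sal, 14443, 14895 and 14698 in PTZ0, and 16148 and 15707 in PTZ45 among Controls. In CBP-ifKOs, Gria1 had 13664, 14201 and 15350.2 in Sal, 15096, 15015 and 13473 in PTZ0, and 14107, 15088 and 14719 in PTZ45. The genotypes overlapped in Sal and PTZ0, and in PTZ45 the 3 CBP-ifKO libraries were below both Control libraries, but Gria1 was not called (log2 fold change -0.055, 95% interval -0.13 to 0.019, adjusted p = 0.343). Gria2 (chr3:80681450-80802835) had 22735, 22197 and 22166 normalized counts in Sal, 21349, 22275 and 23793 in PTZ0, and 23256 and 24241 in PTZ45 among Controls. In CBP-ifKOs, Gria2 had 22173, 21746 and 22993 in Sal, 23176, 24653 and 22442 in PTZ0, and 25337, 23178 and 22878 in PTZ45. The ranges overlapped in every treatment, and the interval of the difference was narrow (log2 fold change 0.021, 95% interval -0.041 to 0.082, adjusted p = 0.707). Gria4, an AMPA subunit of interneurons in the adult hippocampus, was not called in this fit either (log2 fold change -0.12, SE 0.051, adjusted p = 0.0694). Under the GC correction, among other alternatives tried, it was called (log2 fold change -0.14, adjusted p = 0.0296). Both genotypes had Gria1 and Gria2 as the most abundant AMPA subunits, while Gria3 made up 9.43% ± 0.168 (SD, n = 8) of the summed level of the 4 subunits per kilobase in Controls and 8.07% ± 0.446 (n = 9) in CBP-ifKOs.

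**Figure D4:**
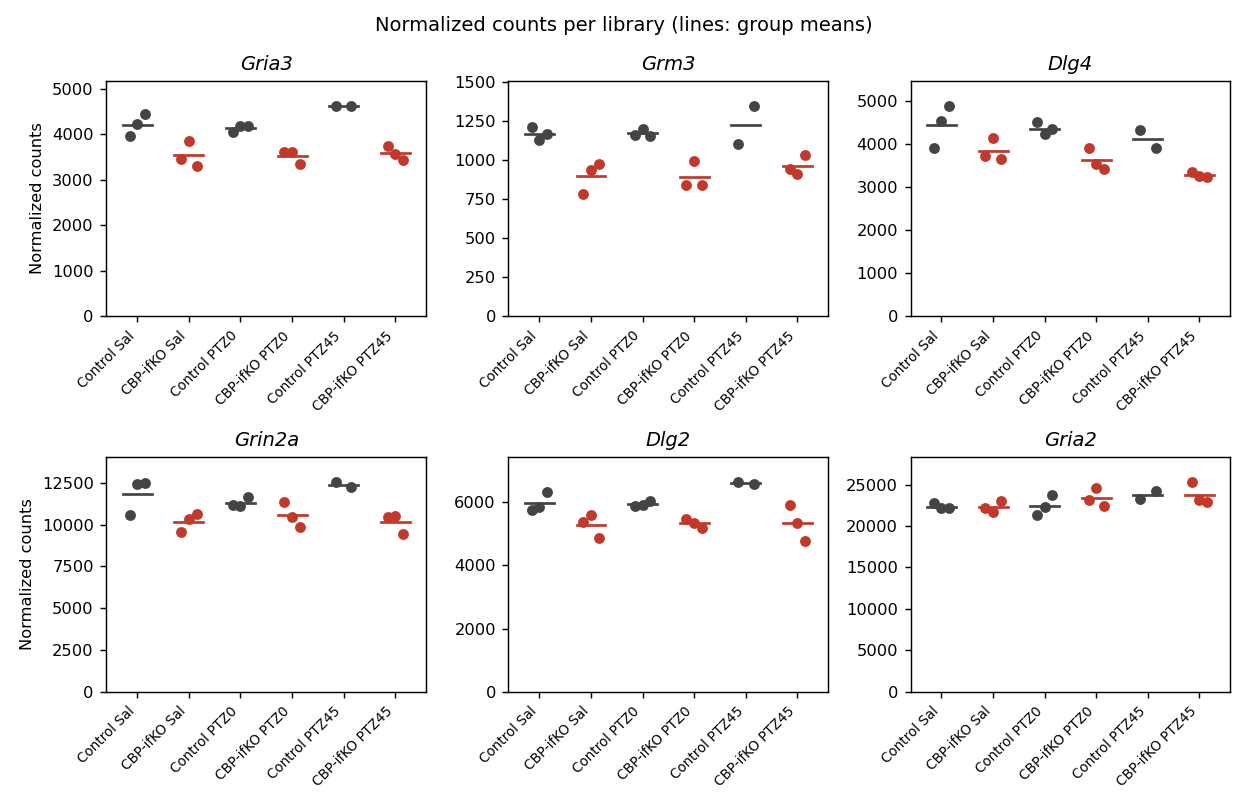
Each point is a library, placed by its group, with Controls in grey and CBP-ifKOs in red, and lines give group means of normalized counts on axes that start at 0. For Gria3 and Grm3 every CBP-ifKO library lies below every Control library, for Dlg2 this holds within each treatment, and for Gria2 the groups overlap.

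Of the 5 kainate receptor subunits, 3 were lower in CBP-ifKOs. Grik2 (chr10:49094833-49788766), which forms the channel of most hippocampal kainate receptors, had 2721, 2592 and 2669 normalized counts in Sal, 2669, 2514 and 2763 in PTZ0, and 2833 and 2909 in PTZ45 among Controls. In CBP-ifKOs, Grik2 had 2309, 2397 and 2269 in Sal, 2425, 2591 and 2393 in PTZ0, and 2588, 2559 and 2355 in PTZ45. The genotypes did not overlap in Sal and PTZ45, and in PTZ0 a single CBP-ifKO library exceeded the lowest Control library. Grik2 was called with log2 fold change -0.16, SE 0.033, adjusted p = 1.63e-05. Grik3 (chr4:125490700-125714173), a subunit with low glutamate affinity, had 624, 655 and 676 normalized counts in Sal, 605, 639.5 and 604 in PTZ0, and 579 and 618 in PTZ45 among Controls. In CBP-ifKOs, Grik3 had 504, 676 and 494 in Sal, 544, 448 and 498 in PTZ0, and 506, 483 and 399.7 in PTZ45. CBP-ifKO Sal replicate 2, the shallowest library, was as high as the highest Control library, and the other 8 CBP-ifKO libraries were below all Controls. The difference of Grik3 passed the test (log2 fold change -0.31, SE 0.062, adjusted p = 2.17e-05). Grik4 (chr9:42518135-42944493), a subunit with high affinity that is typical of CA3 and the mossy fibers, had 562, 599.6 and 630.1 normalized counts in Sal, 690.0, 618 and 618 in PTZ0, and 684 and 536 in PTZ45 among Controls. In CBP-ifKOs, Grik4 had 518, 496 and 534 in Sal, 644, 540.3 and 566 in PTZ0, and 523, 575 and 499 in PTZ45. Here the genotypes overlapped in PTZ0 and PTZ45, and the call (log2 fold change -0.18, SE 0.056, adjusted p = 0.0101) was lost without Control PTZ45 replicate 1 (log2 fold change -0.14) or without the 5 libraries high in choroid plexus markers, where the log2 fold change was -0.20. Grik1 and Grik5 were not called, with log2 fold changes of -0.055 and -0.023.

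Of the 6 NMDA receptor subunits, Grin2a, Grin2c and Grin3a were lower in CBP-ifKOs. Grin2a (chr16:9567898-9995560), a subunit that gives NMDA receptors fast kinetics and rises in level after birth, had 10589.7, 12431 and 12486 normalized counts in Sal, 11183, 11095 and 11654 in PTZ0, and 12566 and 12243 in PTZ45 among Controls. In CBP-ifKOs, Grin2a had 9558, 10356 and 10650.3 in Sal, 11360.4, 10454 and 9849 in PTZ0, and 10486, 10498 and 9419 in PTZ45. The groups were apart in PTZ45 and overlapped in Sal and PTZ0. Over all treatments Grin2a was called (log2 fold change -0.20, SE 0.045, adjusted p = 0.000219). Grin2c (chr11:115249169-115267243), best known from cerebellar granule cells and also found in astrocytes, had 386, 505 and 460.2 normalized counts in Sal, 455, 402 and 414 in PTZ0, and 339.6 and 338 in PTZ45 among Controls. In CBP-ifKOs, Grin2c had 357, 365 and 413 in Sal, 399, 325 and 289 in PTZ0, and 258, 317 and 289 in PTZ45. Both PTZ45 groups were low beside the Sal groups of their own genotype, and the genotypes were apart in PTZ0 and PTZ45. The genotype difference of Grin2c was called (log2 fold change -0.27, SE 0.072, adjusted p = 0.00156), and under the GC correction it was smaller (log2 fold change -0.17, adjusted p = 0.0327). Grin3a (chr4:49661611-49845744), a subunit that lowers calcium entry, had 829.8, 880.3 and 827 normalized counts in Sal, 779, 836 and 834 in PTZ0, and 968 and 871 in PTZ45 among Controls. In CBP-ifKOs, Grin3a had 764, 807 and 649 in Sal, 795, 819 and 715 in PTZ0, and 783, 756 and 749 in PTZ45. The groups overlapped in PTZ0 alone, and Grin3a was called (log2 fold change -0.18, SE 0.051, adjusted p = 0.00448), a call that was lost without the 5 libraries high in choroid plexus markers, where the log2 fold change was -0.16. Grin1 (chr2:25291181-25319187), which every NMDA receptor needs, had 2052, 2381 and 2261 normalized counts in Sal, 2179, 2186 and 2103 in PTZ0, and 2313 and 2175 in PTZ45 among Controls. In CBP-ifKOs, Grin1 had 1927, 2505 and 2380.3 in Sal, 2193, 2014 and 1874 in PTZ0, and 1793, 1963 and 1859 in PTZ45. Its 3 CBP-ifKO PTZ45 libraries were below both Control PTZ45 libraries, the groups overlapped in Sal and PTZ0, and Grin1, whose promoter holds 2 of the cores shown above, was not called (log2 fold change -0.10, 95% interval -0.21 to 0.010, adjusted p = 0.223). Grin2b, the NMDA subunit with slow kinetics, missed the threshold (log2 fold change -0.16, SE 0.062, adjusted p = 0.0579) and was called under the GC correction (adjusted p = 0.0439), and Grin2d, the least abundant of the 34 genes, was not called (log2 fold change 0.088, SE 0.13, adjusted p = 0.712). Grin2d and Kdelr1 overlap on opposite strands, as do Grin1 and Grin1os, and whether the counting used strand is not given in the sources used here.

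All 6 metabotropic receptors were lower in CBP-ifKOs, with a median log2 fold change of -0.33. Grm2 (chr9:106643095-106656082), a presynaptic receptor of mossy fibers and perforant path, had 345, 371 and 280.3 normalized counts in Sal, 366, 343 and 306 in PTZ0, and 279 and 240.1 in PTZ45 among Controls. In CBP-ifKOs, Grm2 had 231, 280.1 and 275 in Sal, 314, 248 and 240.5 in PTZ0, and 229, 226 and 189 in PTZ45. The groups were apart in Sal and PTZ45, and a single CBP-ifKO library was inside the Control range in PTZ0. Grm2 was called with log2 fold change -0.33, SE 0.077, adjusted p = 0.000318. Grm3 (chr5:9485541-9725170), a receptor found in neurons and in astrocytes, had 1212, 1129 and 1171 normalized counts in Sal, 1164, 1204 and 1156 in PTZ0, and 1105 and 1347 in PTZ45 among Controls. In CBP-ifKOs, Grm3 had 783, 936 and 973 in Sal, 840.1, 996 and 841 in PTZ0, and 944, 913 and 1032 in PTZ45. Every CBP-ifKO library lay below every Control library, a pattern that among the 34 genes Gria3 alone shared and that 2.16% of all genes tested showed. Grm3 was at 76.8% of Control (log2 fold change -0.38, SE 0.054, adjusted p = 2.01e-10). Grm4 (chr17:27422387-27521403), a presynaptic receptor of low abundance here, had 94.3, 112 and 84.1 normalized counts in Sal, 76.4, 96.0 and 83.8 in PTZ0, and 84.9 and 97.8 in PTZ45 among Controls. In CBP-ifKOs, Grm4 had 68.5, 104 and 72.4 in Sal, 53.6, 52.5 and 52.0 in PTZ0, and 66.2, 40.0 and 60.1 in PTZ45. Again CBP-ifKO Sal replicate 2 was the high library of its group, and the genotypes did not overlap in PTZ0 and PTZ45. The log2 fold change of Grm4 was the largest of the 34 genes in size in this fit (log2 fold change -0.55, SE 0.12, adjusted p = 8.45e-05), but not with lane as a term (-0.33) or within lane 4 (-0.20).

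Grm5 (chr7:87584168-88134907) had 8474, 8076 and 8441 normalized counts in Sal, 8228, 8091 and 8529 in PTZ0, and 8662 and 8699.5 in PTZ45 among Controls. In CBP-ifKOs, Grm5 had 7002, 7157 and 7530.3 in Sal, 7502, 8035 and 7439 in PTZ0, and 8102, 7238 and 7478 in PTZ45. Its genotypes were apart within each treatment, although the highest CBP-ifKO library, in PTZ45, exceeded the lowest Control library, in Sal. Grm5 was called with a small difference (log2 fold change -0.17, SE 0.031, adjusted p = 1.76e-06). Grm7 (chr6:110645581-111567230), a presynaptic receptor with low affinity for glutamate, had 1692, 1714 and 1633 normalized counts in Sal, 1699, 1741 and 1619 in PTZ0, and 1658 and 1826 in PTZ45 among Controls. In CBP-ifKOs, Grm7 had 1469, 1519 and 1589 in Sal, 1519, 1633 and 1510.0 in PTZ0, and 1562, 1535 and 1497 in PTZ45. A single CBP-ifKO PTZ0 library overlapped with Control PTZ0, and the other treatments were apart (log2 fold change -0.14, SE 0.034, adjusted p = 0.000350). Grm8 (chr6:27275119-28135178), a presynaptic receptor of the perforant path, had 295, 238 and 268 normalized counts in Sal, 264, 316 and 246 in PTZ0, and 237 and 349 in PTZ45 among Controls. In CBP-ifKOs, Grm8 had 221, 268 and 221 in Sal, 203, 213 and 197 in PTZ0, and 254, 185 and 238 in PTZ45. The groups overlapped in Sal and PTZ45 and were apart in PTZ0 (log2 fold change -0.33, SE 0.088, adjusted p = 0.00208). Of the 6 calls, those of Grm2, Grm4, Grm7 and Grm8 were lost without the 5 libraries high in choroid plexus markers, with log2 fold changes of -0.25, -0.39, -0.12 and -0.26 in their absence.

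Of the 7 auxiliary subunits of AMPA receptors, Cacng3 and Cnih2 were lower in CBP-ifKOs. Cacng3 (chr7:122670492-122769393), a TARP of the forebrain, had 224, 244 and 311 normalized counts in Sal, 288, 335 and 277 in PTZ0, and 335 and 299 in PTZ45 among Controls. In CBP-ifKOs, Cacng3 had 215, 326 and 228 in Sal, 215, 209 and 241 in PTZ0, and 239.7, 249.9 and 255 in PTZ45. The genotypes overlapped in Sal, where CBP-ifKO replicate 2 was the highest library of all 6, and were apart in PTZ0 and PTZ45. Cacng3 was called (log2 fold change -0.28, SE 0.088, adjusted p = 0.0121), and with lane as a term its log2 fold change was 0.015. Cnih2 (chr19:5092868-5098521) had 1410.3, 1688 and 1442 normalized counts in Sal, 1569, 1475 and 1419 in PTZ0, and 1312 and 1216 in PTZ45 among Controls. In CBP-ifKOs, Cnih2 had 931, 1172 and 1451 in Sal, 1243, 1382 and 1045 in PTZ0, and 908, 1159.6 and 1232 in PTZ45. The groups were apart in PTZ0 and overlapped in Sal and PTZ45, with 1 CBP-ifKO library inside the Control range in each (log2 fold change -0.28, SE 0.080, adjusted p = 0.00383). Under the GC correction the log2 fold change of Cnih2 was -0.18 (adjusted p = 0.0265). Cnih2 overlaps Yif1a on the opposite strand. Both calls were lost without the 5 libraries high in choroid plexus markers, with log2 fold changes of -0.25 for Cacng3 and -0.18 for Cnih2 in their absence. Cacng2 (stargazin), Cacng8, the main TARP of the hippocampus, Cnih3, Shisa6 and Shisa9 were not called, with log2 fold changes from -0.12 for Cnih3 to 0.20 for Shisa6. Shisa6, which keeps AMPA receptors at the synapse during repeated activation, had 791, 1057 and 1364 normalized counts as its lowest, median and highest Control values and 870.1, 1262 and 1564 in CBP-ifKOs, and the SE of its log2 fold change, 0.12, was the second largest after that of Grin2d. Cacng8 was called higher, at a log2 fold change of 0.16, under the correction for GC content alone.

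Neither auxiliary subunit of kainate receptors was called. Neto1, which also binds NMDA receptors, had 2449, 2663 and 3039.5 normalized counts as its lowest, median and highest Control values, and 2077, 2599.6 and 2945 in CBP-ifKOs. Neto2 had 928, 1049.6 and 1116 in Controls and 998, 1068 and 1212 in CBP-ifKOs. The ranges overlapped for both genes, with log2 fold changes of -0.052 (SE 0.054) and 0.057 (SE 0.042).

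Of the 4 scaffolds, Dlg2, Dlg3 and Dlg4 were lower in CBP-ifKOs. Dlg4 (chr11:70016942-70047522) encodes PSD-95, the most abundant scaffold of the postsynaptic density, and had 3904, 4548 and 4889 normalized counts in Sal, 4518, 4231 and 4348 in PTZ0, and 4341 and 3919 in PTZ45 among Controls. In CBP-ifKOs, Dlg4 had 3732, 4152 and 3648 in Sal, 3926, 3548 and 3433 in PTZ0, and 3347, 3259.8 and 3251 in PTZ45. The genotypes were apart in PTZ0 and PTZ45, and in Sal the lowest Control library, replicate 1, was inside the CBP-ifKO range. Dlg4 was at 83.2% of Control (log2 fold change -0.27, SE 0.046, adjusted p = 3.86e-07). Dlg2 (chr7:90476672-92449247), which encodes PSD-93, had 5753, 5842 and 6327 normalized counts in Sal, 5889, 5906 and 6054 in PTZ0, and 6644 and 6585 in PTZ45 among Controls. In CBP-ifKOs, Dlg2 had 5376, 5582 and 4857 in Sal, 5479, 5330.0 and 5196 in PTZ0, and 5925, 5351 and 4776 in PTZ45. Dlg2 was, with Gria3, Grm3 and Grm5, among the 4 genes whose genotypes did not overlap within any treatment, a pattern that 3.93% of all genes tested showed (log2 fold change -0.21, SE 0.043, adjusted p = 2.44e-05). Dlg3 (chrX:100767722-100818410), X-linked and encoding SAP102, had 2679, 2837 and 2811 normalized counts in Sal, 2539, 2712 and 2709.9 in PTZ0, and 2647 and 2939 in PTZ45 among Controls. In CBP-ifKOs, Dlg3 had 2399.6, 2646 and 2749 in Sal, 2502, 2538 and 2348 in PTZ0, and 2497, 2288 and 2599 in PTZ45. Its groups overlapped in Sal, and the call was close to the threshold (log2 fold change -0.13, SE 0.039, adjusted p = 0.0109) and lost without the 5 libraries high in choroid plexus markers, where the log2 fold change was -0.072. Dlg1, which encodes SAP97, was not called (log2 fold change -0.044, 95% interval -0.13 to 0.044, adjusted p = 0.553).

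Dlg2, Grik2, Grm5 and Dlg1 are long genes that hold annotated genes without coding sequence inside them on the same strand, which share their sequence with unspliced RNA of the host gene. Dlg2 held 20 of the 31 such genes with at least 500 counts, Grik2 and Grm5 held 5 each, and Dlg1 held 1. Of these 31 genes, 3 were called lower and 0 higher over all treatments, with a median log2 fold change of -0.083, beside 11.5% of all genes called lower in that fit. Those inside Dlg2 summed to 5680 ± 58.6 (SD, n = 3) normalized counts in Control Sal and to 5367 ± 476 in CBP-ifKO Sal. In PTZ0 the sums were 5519.8 ± 176 and 5444 ± 92.9 (n = 3 each), and in PTZ45 they were 6472 ± 158 (n = 2) in Controls and 5499 ± 674 (n = 3) in CBP-ifKOs. The mean sums inside Grm5 were also lower in CBP-ifKOs in all 3 treatments, whereas those inside Grik2 were lower in Sal and PTZ45 and higher in PTZ0, and that of the gene inside Dlg1 was lower in PTZ0 and PTZ45 and higher in Sal. The differences of these sums were not tested.

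Cell type markers moved with genotype too, and their part in the differences above was not tested. Of 5 markers of CA1 pyramidal cells, Wfs1 (log2 fold change -1.11), Mpped1 (-0.49), Fibcd1 (-0.44) and Pou3f1 (-0.29) were lower in CBP-ifKOs, and the 5 markers summed to 2828 to 3818 normalized counts in CBP-ifKOs against 4118 to 4852 in Controls. Of 5 markers of dentate granule cells, Lct (0.75) and Prox1 (0.26) were higher and C1ql2 (-1.66) and Plk5 (-0.38) lower, with sums of 2913 to 3993 against 2609 to 3817. Of the 4 markers of CA3 pyramidal cells, 0 were called. Pdgfra (-0.30) and Cspg4 (-0.31), the 2 markers of oligodendrocyte precursors, were both lower, with sums of 953 to 1189 against 1233 to 1402. Gad1 (-0.14) and Sst (-0.28), of 6 markers of interneurons, were lower, with sums of 5752 to 6484 against 6438 to 6799, and Gja1 (-0.11), of 5 markers of astrocytes, was lower, with sums of 7498 to 9081 against 7967 to 9023. Of 4 markers of excitatory neurons as a whole, Neurod2 (0.29) was higher and Nrgn (-0.37) lower, and the 4 summed to 10549 to 12935 against 10880 to 12433. Ly6c1 (-0.29), of 4 markers of endothelium, was lower and the other 3 were above 0 and not called, with sums of 967 to 1206 against 1087 to 1184. Of the markers of oligodendrocytes, microglia and thalamus, 0 of 5, 0 of 5 and 0 of 3 were called. Of the 5 choroid plexus markers, whose median log2 fold change was 1.47, DESeq2 gave 1 an adjusted p, and it was not called. No marker was at 0 counts.

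The genotypes were next compared within each treatment, to ask whether the differences were present before kindling. In Sal mice, Grm3 was the only one of the 34 genes called (log2 fold change -0.39, SE 0.10, adjusted p = 0.0104), beside 1.77% of all genes tested that were called lower and 2.04% in either direction. The quasi-likelihood test of edgeR did not call it (adjusted p = 0.0689), nor did DESeq2 when Control Sal replicate 1, 2 or 3 or CBP-ifKO Sal replicate 1 was left out, whereas 2 genes were called without CBP-ifKO Sal replicate 2 and 3 without replicate 3. In Sal, 25 of the 34 genes had a log2 fold change below 0, and 10 of the 34 genes had an unadjusted p under 0.05. Of all genes, 1700 had such a p in Sal, where 15004 had an adjusted p.

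In kindled mice that received saline (PTZ0), 8 of the 33 genes with an adjusted p were lower in CBP-ifKOs and 0 higher, beside 5.25% of all genes tested called lower and 1.43% higher. They were Grm3 (log2 fold change -0.40, SE 0.085, adjusted p = 0.000213), Dlg4 (log2 fold change -0.26, SE 0.063, adjusted p = 0.00124), Gria3 (log2 fold change -0.24, SE 0.057, adjusted p = 0.00177), Cacng3 (log2 fold change -0.43, SE 0.13, adjusted p = 0.0285), Grik3 (log2 fold change -0.31, SE 0.10, adjusted p = 0.0302), Cnih2 (log2 fold change -0.28, SE 0.092, adjusted p = 0.0367), Dlg2 (log2 fold change -0.16, SE 0.051, adjusted p = 0.0376) and Grm8 (log2 fold change -0.43, SE 0.14, adjusted p = 0.0400). The values of these genes in each library are those given above. With edgeR 7 genes were called, 6 of these 8 without Cnih2 and Dlg2, and Grm4. Grm3 was called under all 12 alternatives and Dlg4 under 10, whereas Cnih2 and Grm8 were called under 2 and Cacng3 and Dlg2 under 3. Without CBP-ifKO PTZ0 replicate 3, a library high in choroid plexus markers, 1 of the 8 was called, and without any single Control PTZ0 library 2 were.

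In kindled mice that received PTZ (PTZ45), 4 genes were lower in CBP-ifKOs and 0 higher, beside 2.82% of all genes tested called lower and 0.25% higher. Gria3 (log2 fold change -0.36, SE 0.081, adjusted p = 0.000615), Dlg4 (log2 fold change -0.33, SE 0.084, adjusted p = 0.00560), Grin2a (log2 fold change -0.29, SE 0.080, adjusted p = 0.0149) and Dlg2 (log2 fold change -0.30, SE 0.095, adjusted p = 0.0455) were called. With edgeR the only call was Gria3 (adjusted p = 0.0318), and without Control PTZ45 replicate 1 no gene was called. Without Control PTZ45 replicate 2 or CBP-ifKO PTZ45 replicate 2 there was 1 call, and leaving out CBP-ifKO PTZ45 replicate 3 gave 2. The replicate number as a block left 0 calls in PTZ45 and in Sal and 3 in PTZ0. Grm3 missed the threshold in PTZ45 with a log2 fold change of -0.35, close to its values of -0.39 in Sal and -0.40 in PTZ0.

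Whether the genotype difference itself differed among the 3 treatments was asked with a likelihood ratio test in DESeq2. It called 0 of the 34 genes, with 0 at an unadjusted p under 0.05, and edgeR called 0 too. In all, 0.347% of genes tested were called, and 437 genes had an unadjusted p under 0.05. A gene that was called in 1 treatment and not in another was thus not shown to differ between them.

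**Figure D5:**
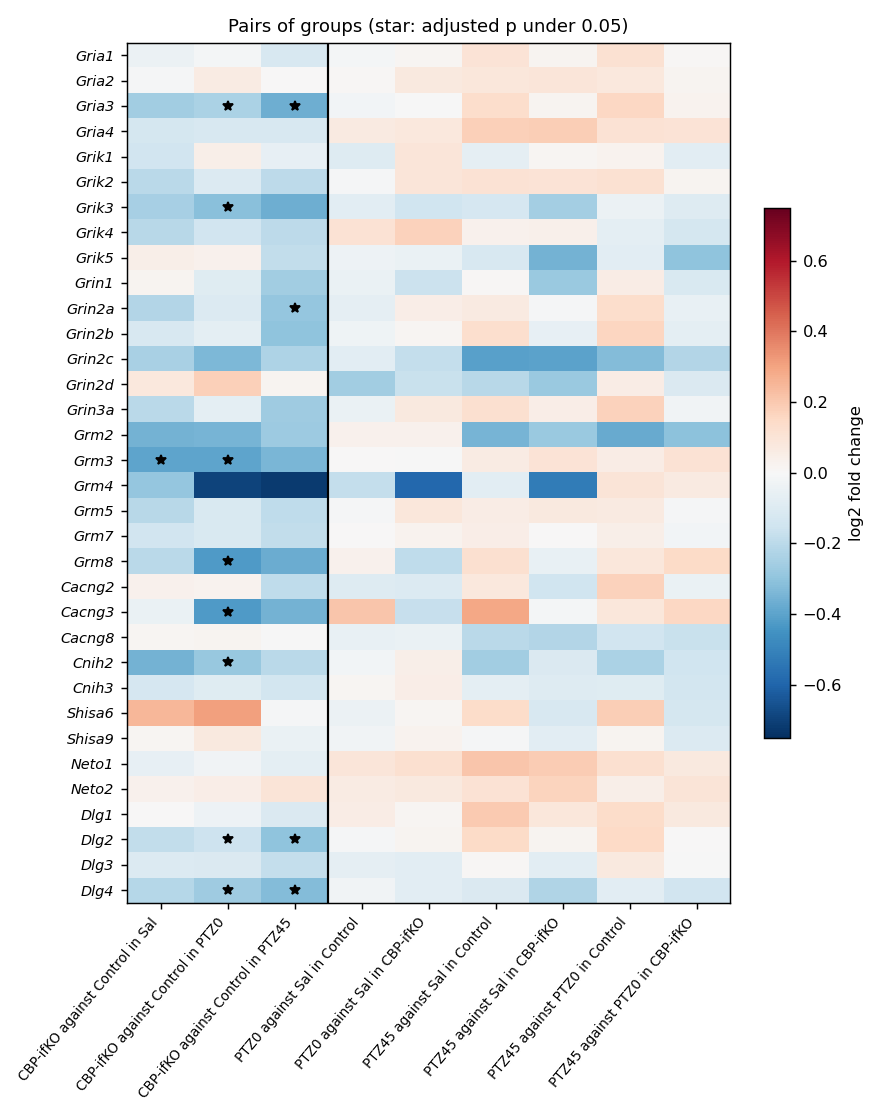
Colors give the log2 fold change of the 34 genes (rows) in 9 comparisons of pairs of groups (columns), with the 3 genotype comparisons to the left of the line and the 6 comparisons of treatments to the right, and stars mark an adjusted p under 0.05. All 13 stars lie in the genotype comparisons, and Grm3, Gria3, Dlg2 and Dlg4 each have 2.

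The response to treatment was compared within each genotype, where Sal and PTZ45 libraries differ in lane tag, so that lane and treatment cannot be told apart in these pairs. Fos, an immediate early gene that reports neuronal activation, had 2483 and 2915 normalized counts as its lowest and highest values in Control PTZ45 against 28.1 to 62.4 in Control Sal, and 163 to 288 in CBP-ifKO PTZ45 against 26.9 to 33.99 in CBP-ifKO Sal. Of the 34 genes, 0 were called in PTZ45 against Sal in Controls, where 1.17% of all genes tested were, and 0 in CBP-ifKOs, where 0.294% were. The quasi-likelihood test of edgeR called 0 in both. Of all genes, 1412 in Controls and 877 in CBP-ifKOs had an unadjusted p under 0.05, where 17367 and 19757 had an adjusted p. In each genotype, 4 of the 34 genes had an unadjusted p under 0.05. In both genotypes the lowest p of the 34 was that of Grin2c, which had 386, 505 and 460.2 normalized counts in Control Sal and 339.6 and 338 in Control PTZ45. These groups did not overlap, but the difference did not pass the test (log2 fold change -0.41, 95% interval -0.69 to -0.12, adjusted p = 0.221). In CBP-ifKOs the Sal and PTZ45 groups of Grin2c were likewise apart (log2 fold change -0.40, 95% interval -0.67 to -0.13, adjusted p = 0.456).

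The others of the 34 genes with an unadjusted p under 0.05 were Grm2, Cnih2 and Neto1 in Controls and Dlg4, Grin1 and Grik5 in CBP-ifKOs. In Controls, the log2 fold change of Grm2 was -0.35 (95% interval -0.67 to -0.031), that of Cnih2 was -0.26 (95% interval -0.47 to -0.054) and that of Neto1 was 0.21 (0.038 to 0.37). In CBP-ifKOs, the log2 fold change of Dlg4 was -0.23 (-0.38 to -0.071), that of Grin1 -0.28 (-0.47 to -0.077) and that of Grik5 -0.35 (-0.62 to -0.084). From 40.7% to 57.4% GC content, levels in the PTZ45 libraries trended by -0.326 to -0.043 on the log2 scale. This trend was 0.062 to 0.185 in Control Sal and -0.072 to 0.157 in CBP-ifKO Sal. The genes lower here had 54.72% (Dlg4) to 61.8% (Cnih2) GC and Neto1 39.95%, beside a median of 50.0% over the 34. The part of GC content in these values was not tested. Grin1 was called in CBP-ifKOs when CBP-ifKO Sal replicate 1, a library high in choroid plexus markers, was left out (adjusted p = 0.0111). For Gria1, PTZ45 against Sal gave log2 fold change 0.10, 95% interval -0.060 to 0.26, adjusted p = 0.888 in Controls, and for Gria2 it gave log2 fold change 0.084, 95% interval -0.052 to 0.22, adjusted p = 0.890. The interaction, which tests whether the PTZ45 effect differs between genotypes, called 0 of the 34 genes in DESeq2 and in edgeR, and 1 gene, Grin1, had an unadjusted p under 0.05 (log2 fold change -0.28, 95% interval -0.56 to -0.0058, adjusted p = 1). Of all genes tested, 0.329% were called for the interaction, and 417 genes in all had an unadjusted p under 0.05.

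Kindling without a last injection left no call among the 34 genes either. In PTZ0 against Sal, 0 genes were called in Controls, whose PTZ0 and Sal libraries share lane 3, and 0 in CBP-ifKOs, with 0 and 1 gene at an unadjusted p under 0.05 and 0.00843% and 0.0112% of all genes tested called. In Controls, the 95% intervals of 32 of the 34 genes lay within -0.5 and 0.5 on the log2 scale. The gene below 0.05 in CBP-ifKOs was Grm4 (log2 fold change -0.59, 95% interval -1.11 to -0.069, adjusted p = 1). For the last injection in kindled mice, PTZ45 against PTZ0, DESeq2 called 0 of the 34 genes in either genotype, where 1.25% of all genes tested were called in Controls and 0.0872% in CBP-ifKOs, and edgeR called 0 too. In Controls 8 of the 34 genes had an unadjusted p under 0.05, beside 1561 of all genes, where 17982 had an adjusted p. In CBP-ifKOs, whose PTZ0 and PTZ45 groups share lane 5, Grm2 (log2 fold change -0.31) and Dlg4 (-0.14) did, beside 559 of all genes. In Controls the 8 were Gria1, Gria3, Grin2a, Grin2b and Dlg2, with log2 fold changes between 0.12 and 0.16, and Grin2c, Grm2 and Cnih2, with -0.33, -0.38 and -0.24. Grm2 had 366, 343 and 306 normalized counts in Control PTZ0 and 279 and 240.1 in Control PTZ45, without overlap, and its adjusted p was 0.315. Without Control PTZ45 replicate 1, Dlg1 was called higher in PTZ45, and without replicate 2, Grin2b and Shisa6 were. Control PTZ0 and Control PTZ45 differ in lane tag and in the trend with GC content (0.017 to 0.173 and -0.238 to -0.077). The part of either in these values was not tested.

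A wider list of 49 genes of glutamate signaling, namely other receptors, auxiliary proteins, scaffold and trafficking proteins, transporters and kinases, had 15 genes lower and 5 higher in CBP-ifKOs over all treatments, of 45 with an adjusted p, with a median log2 fold change of -0.099, beside the 11.5% and 7.76% of all genes called lower and higher in that fit. Of its 15 scaffold and trafficking genes, 7 were lower and 0 higher, and of its 14 auxiliary genes 3 were lower and 3 higher. Of its 5 receptors, 1 was lower and 2 were higher. The highest log2 fold changes were 0.16 among these receptors and 0.19 among the auxiliary genes. Values with lane as a term are not given for this list. Gsg1l, an auxiliary subunit of AMPA receptors, was lower by this test (log2 fold change -0.53, SE 0.13, adjusted p = 0.000363). Dlgap3, a partner of PSD-95, was lower with -0.34 (SE 0.072, adjusted p = 4.53e-05), and Nsf, an ATPase of membrane fusion that binds Gria2, with -0.28 (SE 0.027, adjusted p = 1.06e-22). Grid1, a delta receptor, was lower with -0.27 (SE 0.040, adjusted p = 1.91e-09). In PTZ45 against Sal in Controls, Homer1, whose short activity-dependent form competes with the long ones for Grm5, rose by 0.42 on the log2 scale (SE 0.081, adjusted p = 5.06e-05), and Dlgap3 fell by 0.47 on the log2 scale (SE 0.10, adjusted p = 0.000704). These were the 2 genes of the 49 called in that comparison, beside 1.17% of all genes tested.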

How the data were processed

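Total hippocampal RNA was sequenced in 17 libraries of 6 groups. Per the study's methods and the submitters' processing notes, the authors checked reads with FastQC 0.11.8, trimmed them with Trim Galore 0.6.4, aligned them to mm10 (GRCm38) with STAR 2.6.1, kept a mapping quality over 10 and counted reads on exons of Ensembl genes with Rsubread. The deposited values are raw counts per gene, beside a gene length column, here used to divide normalized counts by kilobases. The table held 18 count columns, and 1 column that matched no sample's labels was not used, although its name is like those of Control PTZ45, the group with 2 libraries.

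Groups were compared with the Wald test of DESeq2 1.42.0 (R 4.3.3) on all genes with a count, with Benjamini-Hochberg adjustment and a threshold of 0.05. Pairs of groups were fitted alone, genotype over all treatments with treatment as a term, and the difference among treatments with a likelihood ratio test. The alternatives tried were edgeR 4.0.16 (quasi-likelihood test), TMM size factors, at least 10 counts in 2 libraries, a GC correction (loess, span 0.5), a replicate block, 1 fit of all libraries, the lane tag as a term, and leaving out each library. The fits were tested on simulated data. The methods describe individual mice, and where the labels do not say that samples came from separate animals, p-values measure only the spread between these samples.

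The 34 genes and all gene lists were chosen with earlier results of these data known. Library values were given for genes called over all treatments and for Gria1, Gria2, Grin1 and Dlg4. Genes of the wider list were named by the size of the change among those called that averaged 50 normalized counts or more. Cell type markers were named, where called, after their values were seen.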

Additional observations from a re-analysis of the deposited data

How the results depend on the processing

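Over all treatments, the 18 genes lower in CBP-ifKOs were called with edgeR, with TMM size factors, with at least 10 counts in 2 libraries, with the GC correction and with the replicate block. Leaving out 1 library gave 18 to 21 calls, some of them of genes outside the 18. Of the 18, Grik4 alone was lost in such a fit, without Control PTZ45 replicate 1. The GC correction also called Gria4 and Grin2b lower and Cacng8 higher. With lane as a term there were 0 calls, also with the GC correction added, within lane 4 there were 5, and without the 5 libraries high in choroid plexus markers there were 9, and the cause was not tested. Cacng3 turned to 0.015 with lane as a term and Grin2c to 0.16 within lane 4. In Sal, the 1 call became 0 with edgeR, 0 with the replicate block, 4 in 1 fit of all libraries and 0 to 3 without a library. In PTZ0, the 8 calls became 7 with edgeR, 5 with at least 10 counts in 2 libraries, 3 with the replicate block, 4 in 1 fit of all libraries and 1 to 8 without a library. In PTZ45, the 4 calls became 1 with edgeR, 0 with the replicate block and 0 to 3 without a library. Leaving out a library gave 0 to 1 calls for PTZ45 against Sal in CBP-ifKOs and 0 to 2 for PTZ45 against PTZ0 in Controls, where the lone Control PTZ45 library is assumed to vary like the other group.

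The replicate numbers did not pair the samples: over 40 pairs with the same number, deviations from the group means correlated at -0.521 to 0.534, and 15 pairs were over 0.1. The shallowest library held 5831992 counts.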

Other observations

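The makeup of each receptor family was also computed as shares of summed normalized counts per kilobase, as a description without a test. In AMPA receptors, Gria1 made up 54.0% ± 1.30 (SD, n = 8) in Controls and 53.9% ± 1.45 (n = 9) in CBP-ifKOs, Gria2 31.8% ± 1.14 and 33.4% ± 1.06, and Gria4 4.86% ± 0.416 and 4.65% ± 0.363. The ratio of Gria3 to Gria2 was 0.297 ± 0.0150 in Controls and 0.242 ± 0.0156 in CBP-ifKOs. Among the Grin2 subunits, Grin2b made up 56.1% ± 1.26 and 56.9% ± 1.80, Grin2a 38.7% ± 0.899 and 38.2% ± 1.63, and the ratio of Grin2a to Grin2b, which rises as hippocampal synapses mature, was 0.691 ± 0.0296 and 0.674 ± 0.0498. Among kainate subunits, Grik3 made up 11.0% ± 0.635 in Controls and 9.68% ± 0.907 in CBP-ifKOs, while Grik2 made up 32.3% ± 2.20 and 31.8% ± 2.88. Of the 4 scaffolds, Dlg3 had the largest share in both genotypes (34.8% ± 1.116 and 35.8% ± 1.61). Such an order depends on the length of the gene models, 5844 bases for Dlg3 and 17870 for Dlg2. Without the division by length, Controls averaged 2734 normalized counts for Dlg3, 4337 for Dlg4 and 6125 for Dlg2. For Gria1 and Gria2 they averaged 15040 and 22752, so that order turned round as well.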
